A study of Mus musculus with 8 samples.

Results

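The genes described here make sterols and fatty acids in mouse pluripotent stem cells, together with the proteins that control that synthesis and move cholesterol inside the cell. They were chosen by name: 33 gene symbols were listed, and a probe set entered when the platform annotation gave it 1 of these symbols and no other. This found 32 genes on 73 probe sets, of which 69 passed a filter on low signal, and all 32 genes were tested among 14004 genes of the array. Acat2 was not among them, so its expression was not tested. It enters only the promoter counts. The list does not hold every enzyme of either pathway, and its counts refer to the listed genes.

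The series measured RNA on 8 Affymetrix 3' expression arrays. The arrays cover iPS line 1, iPS line 2, iPS line 3 and an ES control line, with 2 arrays for each of these 4 lines. Induced pluripotent stem (iPS) cells are body cells returned to a state like that of embryonic stem (ES) cells, and the title of the series calls these iPS cells integration-free, meaning without reprogramming vector left in the genome. All 4 lines were male, of strain C57BL/6, without further alleles in the labels, grown in N2B27 medium with mouse leukaemia inhibitory factor and taken at passage 7 to 10. The titles call the arrays biological replicates, but nothing says that they came from separate cultures, so p-values measure the spread between arrays, which may be technical. ES cells are represented by 1 line, so a difference from it may belong to that line as much as to ES cells in general.

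Cholesterol is built through the mevalonate pathway, which joins acetyl units into isoprenoids, joins these into squalene, closes squalene into lanosterol and trims lanosterol in a series of steps. Fatty acid synthase makes palmitate from malonyl units, and elongases and desaturases then lengthen it and add double bonds. Both pathways are switched on by the sterol regulatory element binding proteins (SREBPs), which the escort protein SCAP carries out of the endoplasmic reticulum when sterols are low and which INSIG proteins hold back when sterols are high.

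SREBPs are known to act at sterol-gene promoters beside the CCAAT-binding factor NF-Y, so 6 promoters are shown to let a reader see these letters. Of these, 5 belong to genes called in iPS line 2. Hmgcs1, which passed the test in no line, is also shown. Of the 25 listed genes with a promoter entry, it is the 1 with the sterol element letters. Each runs from 250 bases before to 50 bases after an annotated start (RefSeq, GRCm38.p6). Capitals mark CCAAT or its reverse complement ATTGG, and in Hmgcs1 also the sterol element letters TCACNCCAC. No marked matches overlap. Of the 3 annotated starts of Dhcr7, the 1 with the most CCAAT matches was printed, and the other 2 hold 0. Idi1, Srebf1 and Acaca, also called in line 2, have entries that are not printed. Those of Idi1 and Srebf1 include CCAAT matches, and that of Acaca has none. Positions are chr13:119690101-119690400 (+ strand) for Hmgcs1, chr7:143829964-143830263 (+) for Dhcr7, chr19:6067801-6068100 (- strand) for Tm7sf2, chrX:8193463-8193762 (-) for Ebp, chr5:28071162-28071461 (+) for Insig1 and chr15:82147019-82147318 (+) for Srebf2.
Hmgcs1: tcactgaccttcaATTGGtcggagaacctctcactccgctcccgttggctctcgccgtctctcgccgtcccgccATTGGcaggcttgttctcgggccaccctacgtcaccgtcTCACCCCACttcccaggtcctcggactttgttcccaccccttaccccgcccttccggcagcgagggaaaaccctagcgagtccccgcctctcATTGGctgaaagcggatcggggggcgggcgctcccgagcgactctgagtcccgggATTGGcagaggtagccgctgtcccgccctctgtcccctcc
Dhcr7: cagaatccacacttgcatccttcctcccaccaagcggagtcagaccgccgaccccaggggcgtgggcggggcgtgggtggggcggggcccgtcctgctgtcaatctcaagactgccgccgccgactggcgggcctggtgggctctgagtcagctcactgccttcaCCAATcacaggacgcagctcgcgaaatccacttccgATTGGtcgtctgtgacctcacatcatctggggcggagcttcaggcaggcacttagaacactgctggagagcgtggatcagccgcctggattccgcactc
Tm7sf2: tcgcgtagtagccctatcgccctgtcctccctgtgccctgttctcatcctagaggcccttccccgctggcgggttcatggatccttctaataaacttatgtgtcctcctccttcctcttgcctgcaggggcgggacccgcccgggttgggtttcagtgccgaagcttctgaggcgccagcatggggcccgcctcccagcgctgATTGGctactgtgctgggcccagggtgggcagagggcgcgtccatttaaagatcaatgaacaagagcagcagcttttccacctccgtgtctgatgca
Ebp: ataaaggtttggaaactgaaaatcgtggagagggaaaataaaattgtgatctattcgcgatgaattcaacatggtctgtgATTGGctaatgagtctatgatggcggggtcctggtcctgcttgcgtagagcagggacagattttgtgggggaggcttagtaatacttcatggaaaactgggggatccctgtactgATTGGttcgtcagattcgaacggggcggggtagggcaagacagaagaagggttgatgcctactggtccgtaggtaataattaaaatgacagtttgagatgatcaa
Insig1: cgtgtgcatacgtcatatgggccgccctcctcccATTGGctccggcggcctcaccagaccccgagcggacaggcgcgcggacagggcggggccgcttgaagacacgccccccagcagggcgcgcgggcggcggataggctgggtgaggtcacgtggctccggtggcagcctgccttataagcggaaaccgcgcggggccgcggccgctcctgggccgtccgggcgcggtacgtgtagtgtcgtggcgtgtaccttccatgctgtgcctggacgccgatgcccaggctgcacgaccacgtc
Srebf2: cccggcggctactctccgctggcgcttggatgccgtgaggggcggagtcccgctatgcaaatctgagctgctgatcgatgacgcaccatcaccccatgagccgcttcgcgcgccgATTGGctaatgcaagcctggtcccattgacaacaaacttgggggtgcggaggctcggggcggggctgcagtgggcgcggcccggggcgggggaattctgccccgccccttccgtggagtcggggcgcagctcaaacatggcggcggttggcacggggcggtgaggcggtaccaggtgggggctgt

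A promoter entry was matched for 25 of the 33 listed genes, and not for Fdps, Fdft1, Sqle, Npc1, Stard4, Scd1, Scd2 and Fads1. The 25 include Acat2, whose expression was not tested. CCAAT, read on both strands, was present in at least 1 promoter of 20 of these 25 genes (80%), against 42.6% of the 11275 tested genes with an entry. Among sterol enzymes 14 of 15 held it, and among fatty acid enzymes 2 of 5. The GC box letters GGGCGG were in 21 of 25 (84%), against 65.5% of tested genes, and the E-box letters CACGTG in 5 of 25, against 11.3%. The letters TCACNCCAC were found in 1 of 25, Hmgcs1, against 1.53% of tested genes. Counted over single promoters of the same length, CCAAT was in 21 of 33 (63.6%) promoters of the listed genes and in 37.4% of all 32851. These matches describe letters in a window and were not measured as binding.

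Signals are linear array intensities, and the array median ranged from 54.1 to 64.3 at a common trimmed mean of 499.8. All 8 pluripotency markers checked were above the low-signal floor of 37.1 in every line, with a summed signal of 95699 to 101768 in line 1, 103990 to 106897 in line 2, 99958 to 103686 in line 3 and 101722 to 109371 in ES cells. Fibroblast markers summed to 242 to 271 in line 1, 416 to 476 in line 2, 246 to 279 in line 3 and 224 to 238 in ES cells. In these groups 3, 3, 1 and 2 of 9 markers were above the floor in both arrays. Col1a1, Postn, Dcn and Twist2 were at or under the floor in both arrays of every line, Col3a1 in all but line 3, and Lum in lines 1 and 3. In line 2 against ES cells limma called 1 of the 4 fibroblast markers tested higher, Pdgfrb (1.68 ± 0.31), with a median of 0.70 over the 4, and 2 of 8 pluripotency markers lower, Utf1 (-0.86 ± 0.14) and Pou5f1 (-0.23 ± 0.06), with a median of -0.18 (5 lower and 1 higher at an unadjusted p under 0.05). Trophoblast markers summed to 319 to 437 in line 1, 496 to 582 in line 2, 348 to 473 in line 3 and 403 to 442 in ES cells, and in line 2 limma called Ascl2 higher (1.57 ± 0.26) and Plac1 lower (-1.36 ± 0.45) of the 6 tested. Primitive endoderm markers summed to 696 to 749 in line 1, 784 to 798 in line 2, 671 to 705 in line 3 and 838 to 844 in ES cells, with 0 of 9 called by limma in line 2 (1 at an unadjusted p under 0.05, lower). Of all genes, limma called 26.7% in line 2 against ES cells, 16.1% higher and 10.6% lower. Line 2 also stood apart in its beta-actin ratio and its hypoxia-induced genes. Its beta-actin 3'/5' signal ratios, a sign of RNA quality and labelling, were 1.74 and 1.79, against at most 1.62 in the other 6 arrays. The Gapdh 3'/5' ratios of line 2, at 0.915 and 0.946, overlapped with those of line 3, at 0.935 and 0.886. In line 2, 11 of 12 hypoxia-induced genes were higher than in ES cells (limma, adjusted p under 0.05), where 16.1% of all genes were called higher. Their median log2 difference was 1.06. In line 1, 6 of these 12 were higher (median 0.45), where 1.21% of all genes were, and in line 3, 1 was higher and 4 lower (median -0.24), where 1.59% and 2.57% of all genes were. Bnip3, a mitophagy gene among them, had signals of 13391 and 12054 in line 2, against 1838 and 1938 in ES cells. The part of these differences in the results on line 2 was not tested.

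In iPS line 2, 3 of 5 control genes of sterol synthesis, 3 of 17 sterol enzymes, both listed sterol transport genes and both stearoyl desaturases were called higher than in ES cells, while 2 sterol enzymes were called lower. Limma with Benjamini-Hochberg adjustment over all 14004 genes called 13 of 32 genes at an adjusted p under 0.05, 11 higher and 2 lower, where 26.7% of all genes were called, 16.1% higher and 10.6% lower. Of the 17 sterol enzymes 29.4% were called, near the share of all genes. The median log2 difference was 0.17 over the 32 genes and 0.07 over all genes, and 24 of the 32 differences were positive. Both arrays of line 2 lay above both ES arrays for 20 genes and below them for 4, against 36.9% and 24.5% of all genes. In these bulk samples a change in the share of cells of a type and a change in RNA per cell cannot be told apart. The 3 comparisons with ES cells share the same 2 ES arrays.

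**Figure D1:**
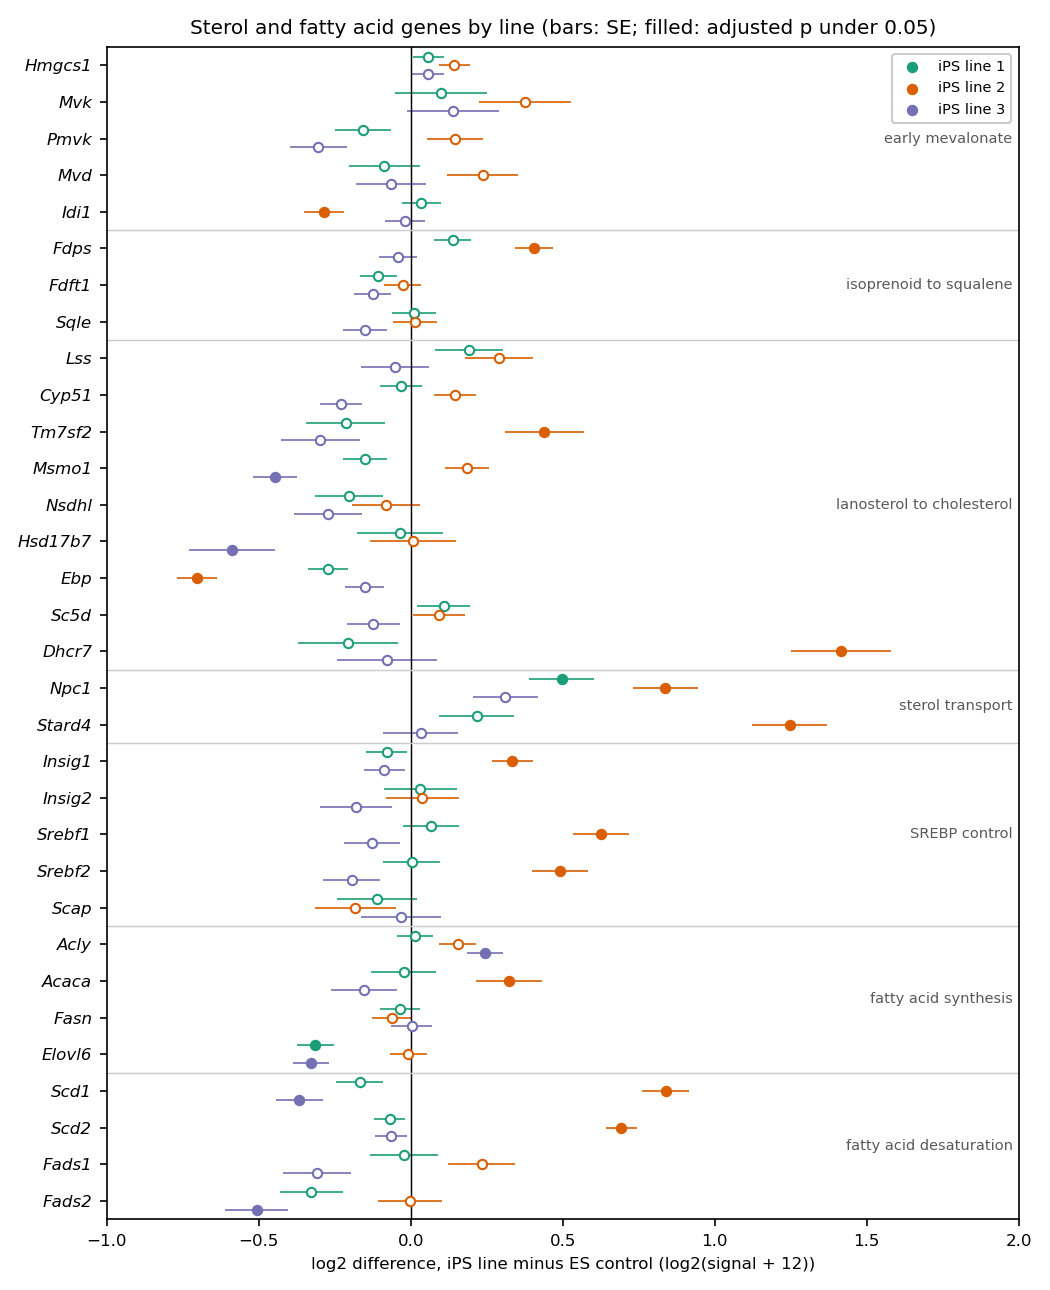
Log2 difference of each gene between an iPS line and ES control (x axis), with genes in rows grouped by role, a colour for each line, SE bars and filled points at a limma adjusted p under 0.05. Line 2 reaches 1.42 for Dhcr7 and -0.70 for Ebp, whereas lines 1 and 3 stay between -0.59 and 0.50.

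Of the SREBP control genes, 3 of 5 were higher in line 2. Srebf2, whose product is the SREBP that drives mainly sterol genes, had signals of 919 and 828 in line 1, 1167 and 1294 in line 2 and 754 and 764 in line 3, against 890.1 and 851 in ES cells. Both arrays of line 2 were above the other 6, and line 3 lay below both ES arrays. The log2 difference of line 2 from ES cells was 0.49 ± 0.09 (SE, n = 2 arrays each), or 1.41-fold (limma, adjusted p = 0.00178).

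Srebf1, whose SREBP forms drive mainly fatty acid genes, had 1093 and 1046 in line 1, 1649 and 1516 in line 2 and 1000.3 and 869 in line 3, against 1049 and 990.2 in ES cells. Lines 1 and 3 overlapped with ES cells, and line 2 was above all of them. The difference of line 2 from ES cells was 0.63 ± 0.09, or 1.54-fold (limma, adjusted p = 0.000308).

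Insig1, which retains SCAP in the endoplasmic reticulum and is itself an SREBP target, had 3354 and 3523 in line 1, 4534 and 4632 in line 2 and 3278 and 3568 in line 3, against 3741 and 3531 in ES cells. Line 2 was above both ES arrays, and lines 1 and 3 were not. The difference of line 2 was 0.33 ± 0.07 or 1.26-fold (limma, adjusted p = 0.00265). Its paralogue Insig2 had 576 and 593 in line 1, 629 and 548 in line 2 and 479 and 528 in line 3, against 624 and 524 in ES cells. All 3 lines overlapped with ES cells, and the differences of 0.03, 0.04 and -0.18 in lines 1, 2 and 3 did not pass the test. Scap also did not pass in any line, with -0.18 ± 0.13 in line 2.

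The 2 sterol transport genes were among the larger increases. Stard4, a cytosolic carrier of cholesterol, had 354 and 421 in line 1, 831 and 773 in line 2 and 332 and 345 in line 3, against 314 and 348 in ES cells. Line 3 lay among the ES values, line 1 just above them, and line 2 far above all other arrays. The difference of line 2 from ES cells was 1.25 ± 0.12, or 2.37-fold (limma, adjusted p = 1.56e-05).

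Npc1, the lysosomal membrane protein that releases cholesterol taken up from outside the cell, was raised above ES cells in more than 1 line. It had 474 and 503 in line 1, 608 and 635 in line 2 and 429 and 426 in line 3, against 342 and 343 in ES cells. All 6 iPS arrays were above both ES arrays, line 2 highest and line 3 lowest of the lines. The difference was 0.84 ± 0.11 or 1.79-fold in line 2 (limma, adjusted p = 0.000109), 0.50 ± 0.11 in line 1 (limma, adjusted p = 0.0294) and 0.31 ± 0.11 in line 3, which did not pass (limma, adjusted p = 0.146). The call in line 1 was lost on leaving out any 1 of its 4 arrays (limma, adjusted p between 0.110 and 0.169).

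**Figure D2:**
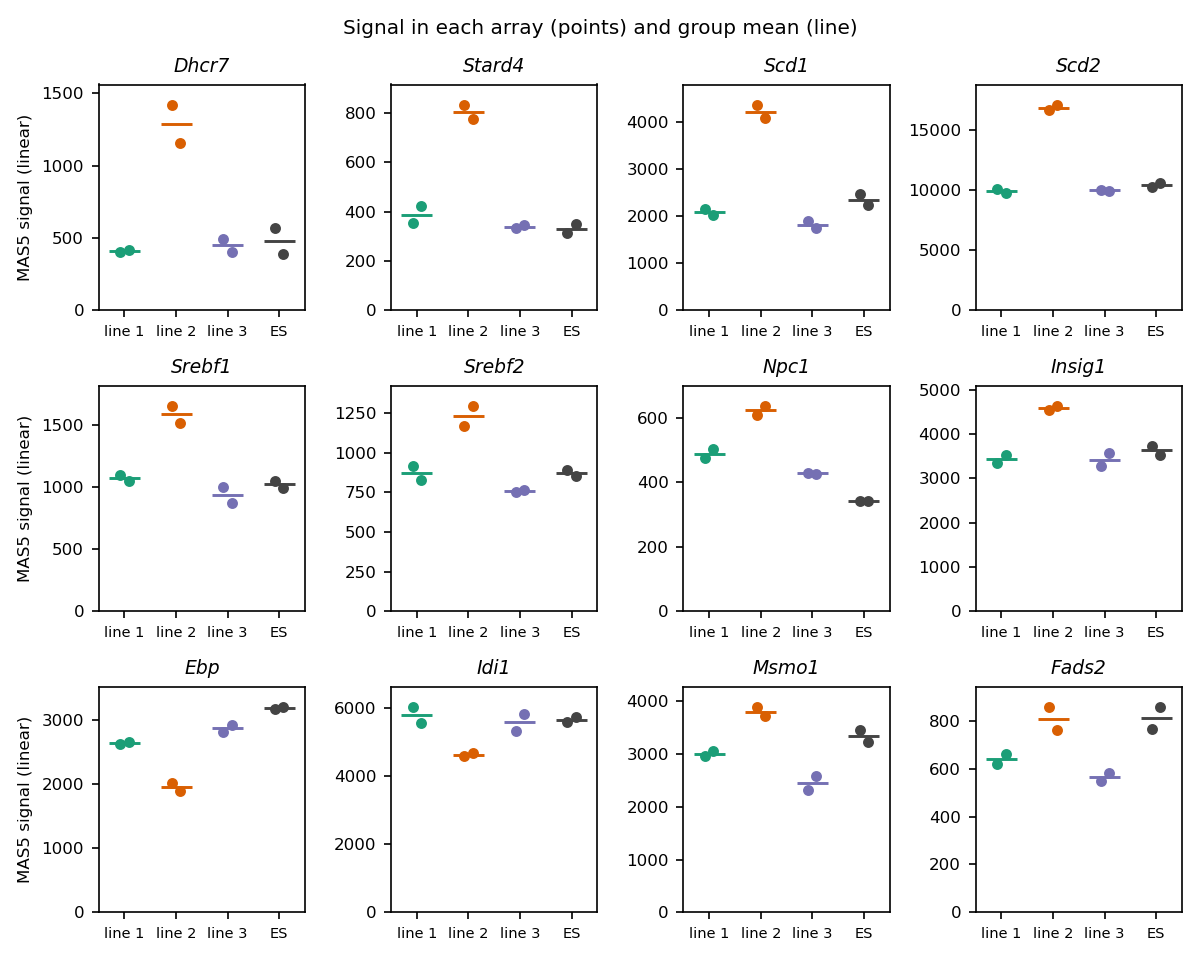
Linear signal (y axis, starting at 0) of the genes that carry the differences, in each array (points) with the group mean (line), for lines 1, 2 and 3 and ES control. For Dhcr7, Stard4, Scd1 and Scd2 the 2 arrays of line 2 lie above the other 6, and for Ebp below them.

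Among the steps up to squalene, 1 gene was higher and 1 lower in line 2, where 16.1% and 10.6% of all genes were. Of 5 genes of the early mevalonate steps, 1 was lower in line 2 and 0 were higher, and at an unadjusted p under 0.05 these counts were 1 and 2. Idi1, the isomerase that makes dimethylallyl diphosphate, was the lower one, with -0.29 ± 0.07 (limma, adjusted p = 0.006). Its arrays read 4582 and 4666 in line 2, against 5571 and 5718 in ES cells, and without the variance trend the call was lost (limma, adjusted p = 0.0762). Hmgcs1, which makes the precursor of mevalonate, stood above both ES arrays in all 6 iPS arrays, but by 0.06, 0.14 and 0.06 in lines 1, 2 and 3, none past the test. This was on its brightest probe set, which ends in _x_at and can match several transcripts. Over its 5 probe sets the difference of the iPS mean from ES cells ran from -0.16 to 0.09, and on the others the arrays overlapped. Mvk, Pmvk and Mvd, the kinases and the decarboxylase of the pathway, were at 0.37 ± 0.15, 0.15 ± 0.09 and 0.24 ± 0.12 in line 2 and also did not pass.

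Fdps, which makes farnesyl diphosphate, had 4663 and 4702 in line 1, 5707 and 5574 in line 2 and 4277 and 3994 in line 3, against 4382 and 4134 in ES cells. Line 3 overlapped with ES cells, and line 1 lay above them and below line 2. The difference of line 2 was 0.41 ± 0.06, or 1.32-fold (limma, adjusted p = 0.00042). The next enzymes, Fdft1 and Sqle, which make squalene and its epoxide, differed by -0.03 ± 0.06 and 0.01 ± 0.07 and did not pass.

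Of 9 genes from lanosterol to cholesterol, 2 were called higher and 1 lower in line 2 than in ES cells. This is 33.3% called, where 26.7% of all genes were, 16.1% higher and 10.6% lower. Dhcr7, which makes cholesterol from 7-dehydrocholesterol, had 401 and 415 in line 1, 1419 and 1156 in line 2 and 493 and 405 in line 3, against 569 and 393 in ES cells. Both line 2 arrays were above all others, while lines 1 and 3 stayed within the ES range. The log2 difference of 1.42 ± 0.16, or 2.67-fold, was the highest of the 32 genes in line 2 (limma, adjusted p = 5.08e-05).

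Ebp, the isomerase that acts earlier in this series, had 2629 and 2650.0 in line 1, 2015 and 1896 in line 2 and 2814 and 2924 in line 3, against 3176 and 3201 in ES cells. All 6 iPS arrays were below both ES arrays, and line 2 was lowest. The difference in line 2 was -0.70 ± 0.07, or 1.63-fold lower (limma, adjusted p = 8.83e-06). Line 1 was at -0.27 ± 0.07 (limma, adjusted p = 0.0521) and line 3 at -0.15 ± 0.07 (limma, adjusted p = 0.25), neither past the threshold.

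Tm7sf2, a sterol C14 reductase, had 431 and 431 in line 1, 666 and 704 in line 2 and 467 and 353 in line 3, against 496 and 508 in ES cells. Lines 1 and 3 were below ES cells, and line 2 above. In line 2 the difference of 0.44 ± 0.13 passed (limma, adjusted p = 0.0239), but not without any 1 of the 4 arrays compared (limma, adjusted p between 0.0622 and 0.114). The other 6 genes of these late steps, Lss, Cyp51, Msmo1, Nsdhl, Hsd17b7 and Sc5d, did not pass in line 2, with differences from -0.08 to 0.29. Msmo1, which removes methyl groups from the sterol ring, had 2962 and 3049 in line 1, 3888 and 3714 in line 2 and 2316 and 2584 in line 3, against 3458 and 3228 in ES cells. Line 2 was above ES cells and lines 1 and 3 below, without overlap, and the difference of line 2 was 0.19 ± 0.07 (limma, adjusted p = 0.0795).

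On the fatty acid side, both stearoyl desaturases and 1 synthesis enzyme were called higher in line 2. Scd1, which puts a double bond into stearate and palmitate, had 2153 and 2023 in line 1, 4349 and 4068 in line 2 and 1890.4 and 1745 in line 3, against 2459 and 2238 in ES cells. Line 2 lay far above all other arrays, while lines 1 and 3 lay below both ES arrays. The difference of line 2 was 0.84 ± 0.08, or 1.79-fold (limma, adjusted p = 7.58e-06). In line 3 it was -0.37 ± 0.08 (limma, adjusted p = 0.0184), and the call was lost without ES control replicate 1 (0.185) or line 3 replicate 2 (0.154).

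Scd2, a second stearoyl desaturase, had 10149 and 9782 in line 1, 16708 and 17122 in line 2 and 10028 and 9975 in line 3, against 10286 and 10633 in ES cells. Here lines 1 and 3 were just below ES cells, and line 2 was far above all of them. Line 2 differed by 0.69 ± 0.05, or 1.62-fold (limma, adjusted p = 1.65e-06).

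The desaturases of polyunsaturated fatty acids were not called in line 2. Fads1, the delta-5 desaturase, had 973 and 834 in line 1, 1148 and 1009 in line 2 and 701 and 772 in line 3, against 852 and 981 in ES cells. Line 1 overlapped with ES cells, line 2 lay above and line 3 below, and the difference of line 2 was 0.23 ± 0.11 (limma, adjusted p = 0.149). Fads2, the delta-6 desaturase, had 621 and 662 in line 1, 857 and 759.7 in line 2 and 550.4 and 581 in line 3, against 764 and 856 in ES cells. Line 2 overlapped with ES cells, at a difference of -0.00 ± 0.10, and lines 1 and 3 lay below them.

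Among the synthesis enzymes, Acaca, which makes malonyl-CoA, was higher in line 2 (0.32 ± 0.11, limma adjusted p = 0.0419). This call was lost without ES control replicate 1 (limma, adjusted p = 0.266), without ES control replicate 2 (0.0503), without line 2 replicate 2 (0.267) and without either array of line 1 (0.0522 and 0.0525) or line 3 (0.0504 and 0.05001), and the difference was -0.01 with the mean of its probe sets. Acly, which supplies cytosolic acetyl-CoA, was at 0.15 ± 0.06, Fasn, the fatty acid synthase itself, at -0.06 ± 0.07 and Elovl6, which lengthens palmitate, at -0.01 ± 0.06. None of these 3 passed. Fasn read 3998 and 3811 in line 2, against 4059 and 4088 in ES cells, and its differences in lines 1 and 3 were -0.04 and 0.00.

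The sterol and fatty acid branches had close medians in line 2. The median log2 difference was 0.15 over 17 sterol enzymes and 0.19 over 8 fatty acid enzymes, a gap of -0.05 where the pooled SD of that gap between replicate arrays was 0.0334. Of the sterol enzymes 3 were called higher and 2 lower, and of the fatty acid enzymes 3 were called higher and 0 lower (4 and 0 at an unadjusted p under 0.05 in limma). These are 29.4% and 37.5% called, where 26.7% of all genes were, 16.1% higher and 10.6% lower. Averaging the probe sets of each gene turned the gap to 0.13, and leaving out probe sets that can match several transcripts, those ending in _x_at or _s_at, turned it to 0.02. In line 1 the medians were -0.03 for sterol and -0.05 for fatty acid enzymes, a gap of 0.02. In line 3 they were -0.13 and -0.23, a gap of 0.11 that was -0.03 without ES control replicate 2.

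**Figure D3:**
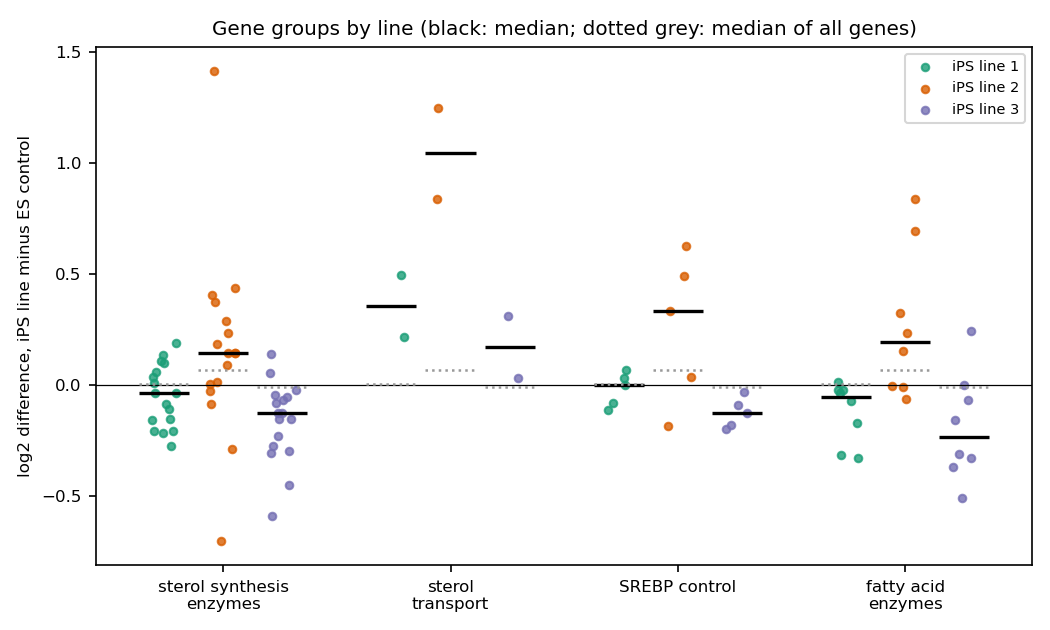
Log2 difference between each iPS line and ES control (y axis) for the sterol enzymes, transport genes, control genes and fatty acid enzymes (x axis), a point for each gene, with the group median in black and the median of all genes dotted in grey. Transport and control genes have medians of 1.04 and 0.33 in line 2, above the sterol and fatty acid medians of 0.15 and 0.19.

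The 10 genes Fdps, Ebp, Dhcr7, Npc1, Stard4, Insig1, Srebf1, Srebf2, Scd1 and Scd2 kept their call and direction in line 2 against ES cells under every alternative that was run for this comparison. Of the 13 called genes, Tm7sf2, Acaca and Idi1 did not.

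In iPS line 3, 26 of the 32 differences from ES cells were negative, and 5 genes were called lower and 1 higher by limma. Of all genes 4.16% were called, 2.57% lower and 1.59% higher. The median was -0.13 over the 32 genes and -0.01 over all genes. Both arrays of line 3 lay below both ES arrays for 17 genes and above them for 4, against 24.8% and 23.6% of all genes. All 9 genes from lanosterol to cholesterol had negative differences, with a median of -0.23, and 2 of them were called.

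Msmo1, whose arrays are given above, was lowest in line 3, with a difference of -0.45 ± 0.07 (limma, adjusted p = 0.00436). Another, dimmer probe set of Msmo1 was at 0.59 in line 3, so that the mean of both was 0.07.

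Hsd17b7, a 3-ketosteroid reductase that works with Msmo1 and Nsdhl, had 378 and 424 in line 1, 427 and 398 in line 2 and 294 and 245 in line 3, against 374 and 449 in ES cells. Lines 1 and 2 overlapped with ES cells, and line 3 was below all of them. The difference was -0.59 ± 0.14 (limma, adjusted p = 0.0375) on a probe set ending in _x_at, and 0.04 once such probe sets were left out.

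Among fatty acid enzymes, 3 of 8 were lower and 1 was higher in line 3. Fads2, whose arrays are given above, differed in line 3 by -0.51 ± 0.10 (limma, adjusted p = 0.0166) and in line 1 by -0.33 ± 0.10, which did not pass (limma, adjusted p = 0.152).

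Elovl6 was lower in line 3 (-0.33 ± 0.06, limma adjusted p = 0.00956) and in line 1 (-0.31 ± 0.06, limma adjusted p = 0.0172). Scd1 was lower in line 3 as given above, and Acly was higher (0.24 ± 0.06, limma adjusted p = 0.0418). The Acly value rests on a probe set ending in _x_at, and the difference was -0.00 without such probe sets. With each array centred on its median, 2 of the 32 genes were called in line 3, both lower. Without ES control replicate 1 the limma adjusted p was 0.0689 for Msmo1, 0.078 for Hsd17b7, 0.0565 for Fads2, 0.0946 for Elovl6, 0.185 for Scd1 and 0.203 for Acly. Limma thus called 0 of the 32 genes without that array (10 at an unadjusted p under 0.05), 2 without ES control replicate 2, 2 without line 3 replicate 1 and 1 without line 3 replicate 2. It called 0 also with the mean of all probe sets (11 at an unadjusted p under 0.05) and without the variance trend (9).

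iPS line 1 was closest to ES cells in number of called genes, with 2 of 32, 1 higher and 1 lower, where 2.34% of all genes were called, 1.21% higher and 1.12% lower. Npc1 was the higher one and Elovl6 the lower one, both given above. The median was -0.03 over the 32 genes and 0.01 over all genes, with 13 positive and 19 negative differences. Both arrays of line 1 lay above both ES arrays for 5 genes and below them for 13, against 23.6% and 20.8% of all genes. The Elovl6 call, like that of Npc1, was lost on leaving out any 1 of the 4 arrays compared (limma, adjusted p between 0.0618 and 0.141). With arrays centred on their medians 1 gene was called, higher.

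Taken over the mean of the 3 iPS lines, limma called 5 of 32 genes against ES cells, 3 higher and 2 lower, where 7.30% of all genes were called, 4.27% higher and 3.03% lower. Npc1 (0.55 ± 0.09, limma adjusted p = 0.00225), Stard4 (0.50 ± 0.10, 0.0094) and Scd2 (0.19 ± 0.04, 0.0191) were higher, and Ebp (-0.38 ± 0.05, 0.00101) and Elovl6 (-0.22 ± 0.05, 0.0188) were lower. The 6 iPS arrays were all above both ES arrays for 2 genes, Npc1 and Hmgcs1, and all below for 1, Ebp, where 7.16% and 5.74% of all genes did so. For Hmgcs1 this held only on its brightest probe set. Of the 5 called genes, 3 lost their call without line 2, the line that stands apart. Without line 2, Stard4 was at 0.12 (limma, adjusted p = 0.65), Scd2 at -0.07 (0.512) and Ebp at -0.21 (0.0547). Limma called 3 genes without ES control replicate 1 and 3 without ES control replicate 2, where Elovl6 (adjusted p = 0.177 and 0.126) and Scd2 (0.207 and 0.0868) were lost in both and Stard4 (0.145) in the first. Without line 2 limma called 4 genes, 1 higher and 3 lower, of which Npc1 and Elovl6 were also called with it and Msmo1 and Fads2 were not. With the mean of each line as 1 sample, 3 means are set against a single ES mean, and limma called 0 of all 14004 genes, so that fit says nothing about the 32 (0 called, 0 at an unadjusted p under 0.05).

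The iPS lines were also compared with each other. These differences take no ES array, although the ES arrays enter the estimate of the spread and the low-signal filter that all comparisons share. Line 2 against line 3 gave the most calls, with 21 of 32 genes, 19 higher and 2 lower, where 31.1% of all genes were called, 19.0% higher and 12.1% lower. The median was 0.40 over the 32 genes and 0.08 over all genes. Line 2 lay above line 3 without overlap for 26 genes and below it for 3, against 38.5% and 24.9% of all genes. All 4 desaturases were higher in line 2: Scd1 by 1.21 ± 0.08 or 2.31-fold (limma, adjusted p = 3.72e-07), Scd2 by 0.76 ± 0.05 (7.66e-07), Fads1 by 0.54 ± 0.11 (0.00251) and Fads2 by 0.50 ± 0.10 (0.00256). Dhcr7 was higher by 1.49 ± 0.16 (limma, adjusted p = 2.54e-05), Tm7sf2 by 0.74 ± 0.13 (0.00087), Msmo1 by 0.63 ± 0.07 (3.51e-05) and Cyp51, the lanosterol demethylase, by 0.38 ± 0.07 (0.00126), or -0.03 with the mean of its probe sets. Ebp was lower by -0.55 ± 0.07 (limma, adjusted p = 4.72e-05) and Idi1 by -0.27 ± 0.07 (0.00764), the last not without line 3 replicate 2 (0.0906). With the mean of its probe sets the difference was 0.21 for Hsd17b7 (limma, adjusted p = 0.307), 0.37 for Acaca (0.145), 0.27 for Msmo1 (0.358) and 0.40 for Lss (0.0618). For Hsd17b7 it was 0.03 (limma, adjusted p = 0.917) without _x_at and _s_at probe sets. Of the 21 genes, 14 kept their call under every alternative run, all 4 desaturases, Dhcr7, Tm7sf2 and Ebp among them.

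Line 2 against line 1 gave 17 of 32 genes, 15 higher and 2 lower, where 23.3% of all genes were called, 13.8% higher and 9.54% lower. The median was 0.27 over the 32 genes and 0.07 over all genes. Line 2 lay above line 1 without overlap for 21 genes and below it for 2, against 36.0% and 23.9% of all genes. Dhcr7 (1.62 ± 0.16, 3.08-fold, limma adjusted p = 3.02e-05), Stard4 (1.03 ± 0.12, 0.000106) and Scd1 (1.01 ± 0.08, 4e-06) were the largest differences. Srebf1 (0.56 ± 0.09, limma adjusted p = 0.000969), Srebf2 (0.49 ± 0.09, 0.00234) and Insig1 (0.41 ± 0.07, 0.000855) were higher and Ebp (-0.43 ± 0.07, 0.000547) was lower. With arrays centred on their medians, which moved the median of all genes to -0.06, 10 genes were called, 8 higher and 2 lower. With the mean of all probe sets the calls of Acaca, Msmo1 and Fads2 were lost. Of the 17 genes, 9 kept their call under every alternative run.

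Between lines 1 and 3 no gene of the set passed the test. Limma called 0 of 32 genes, with 10 at an unadjusted p under 0.05, 9 higher and 1 lower in line 1, where 1.41% of all genes were called, 1.06% higher and 0.350% lower. The median was 0.14 over the 32 genes and 0.02 over all genes, and 24 differences were positive. Line 1 lay above line 3 without overlap for 16 genes and below it for 2, against 23.9% and 19.9% of all genes. Hsd17b7 had the largest, at 0.55 ± 0.14 (limma, adjusted p = 0.0823).

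Of the 32 genes, 21 had several probe sets past the filter, which report on different stretches of a transcript. The calls of single probe sets come from a separate limma fit, adjusted over all 30965 probe sets past the filter. In line 2 against ES cells, all 3 probe sets of Scd2 were called higher, with differences between 0.69 and 0.91. For Stard4 2 of 3 were called, with a range of 0.33 to 1.25, for Srebf2 1 of 2 (0.36 and 0.49) and for Scd1 1 of 2 (0.22 and 0.84). Both probe sets of Idi1 were negative (-0.33 and -0.29). Cyp51 had the widest range among sterol enzymes, with 3 probe sets between -0.66 and 0.15 of which a dimmer one was called lower. For Hmgcs1 1 of 5 was called higher (0.25, limma adjusted p = 0.0125) and for Lss 1 of 3 (0.52, 0.0432), a dimmer probe set than the one that stands for the gene in both. Dhcr7, Ebp, Npc1, Insig1, Srebf1, Fdps and Tm7sf2 had 1 probe set each past the filter, so their values have no second one to be set against.

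**Figure D4:**
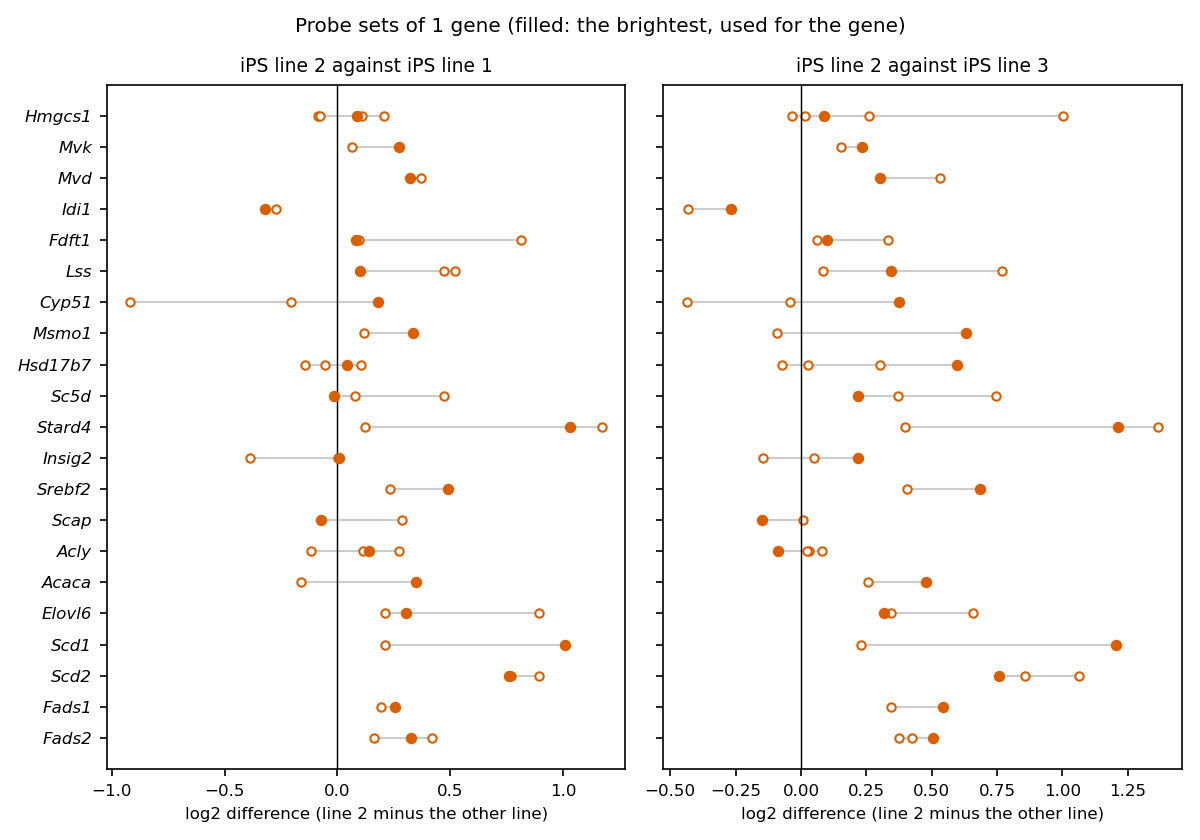
Log2 difference of iPS line 2 from iPS line 1 (left) and from iPS line 3 (right) on the x axes, for every probe set past the filter of the 21 genes with several (rows), with the brightest one, which stands for the gene, filled. The 3 probe sets of Scd2 lie above 0 in both panels, whereas those of Cyp51 lie on both sides of 0.

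Other genes of lipid metabolism, listed by function, were also read in line 2 against ES cells. Of all genes 16.1% were called higher there and 10.6% lower. Of 4 genes listed under further sterol synthesis, 2 were higher and 0 lower (2 and 1 at an unadjusted p under 0.05 in limma). These were Lbr, a second C14 reductase, at 0.22 ± 0.05 and Acat1 at 0.97 ± 0.13. Acat1 encodes a mitochondrial acetoacetyl-CoA thiolase, not a sterol enzyme. In the branch that leaves the pathway for other isoprenoids, 1 of 9 was higher, Coq2 of ubiquinone synthesis (0.70 ± 0.08), and 1 lower, the farnesyltransferase subunit Fntb (-0.65 ± 0.13). Coq2 was higher in lines 1 and 3 as well, at 0.39 and 0.34 (limma, adjusted p = 0.025 and 0.0337). Its signals were 1114 and 1150.5 in line 1, 1399 and 1431 in line 2 and 1125 and 1072 in line 3, against 844 and 884 in ES cells, without overlap.

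Of 10 genes that process or degrade SREBPs and their partners, 5 were higher and 2 lower, with a median of 0.29. The ubiquitin ligase genes Rnf145 (0.49 ± 0.08) and Rnf139 (0.51 ± 0.10) and the SREBP regulator Lpin1 (0.67 ± 0.09) were higher, and Fbxw7, which marks nuclear SREBPs for degradation, was lower (-0.35 ± 0.08). Sterol transport, storage and efflux had 8 higher and 1 lower of 15, with a median of 0.38, among them the exporter Abcg1 (1.66 ± 0.21), the lipoprotein receptor Scarb1 (0.84 ± 0.10), Scarb2 (0.58 ± 0.10) and Tspo (0.71 ± 0.12). Among 17 genes of fatty acid supply, activation and elongation, 7 were higher and 1 lower, with a median of 0.26. Acsl3, which activates fatty acids (0.81 ± 0.07), the citrate carrier Slc25a1 (0.44 ± 0.08) and the elongase Elovl7 (0.98 ± 0.18) were higher, and the sphingolipid desaturase Degs1 was lower (-0.32 ± 0.06). These medians stand beside 0.07 over all genes, and the counts beside 26.7% of all genes called, 16.1% higher and 10.6% lower.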

How the data were processed

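RNA from 3 iPS lines and 1 ES line (2 arrays each) was measured on 8 arrays. For every probe set the authors deposited a linear intensity, which the submitters' processing notes credit to MAS5. Its version, scaling target and detection calls were not given in the sources read. No further scaling was applied. The number of arrays limits the precision.

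Gene symbols came from the platform annotation, which gave 1 symbol for 34945 probe sets and several for 932, and probe sets with several were left out. A pseudocount of 12 (20th percentile of the signals) was added before taking log2, which shrinks fold changes at low signal. Probe sets above 37.1 (40th percentile) in 2 or more arrays were kept, 30965 of 45101, and the brightest probe set stood for its gene. A group-means model over all 8 arrays was fitted with limma 3.58.1 in R 4.3.3, with an intensity trend. It left 4 residual degrees of freedom (12.4 once moderated). Two-sided p-values were adjusted over the 14004 genes after Benjamini and Hochberg, and errors are limma's SE. The fit was tested on simulated data. Single probe sets were fitted separately in the same way, with adjustment over the 30965 probe sets kept.

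The genes and lists were chosen with earlier results of these data known. Of the 18 genes called against ES cells, the 14 with the largest difference are given array by array, with the paralogue pairs of Insig, Srebf, Scd and Fads. Up to 4 called genes are named from each further list. Same-numbered arrays of different lines did not deviate together (r between -0.0137 and 0.0284 over genes), so no pairing was used. Alternatives covered scaling, pseudocount, filter, probe set rule, variance trend, replicate block, samples fitted and arrays left out.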

Additional observations from a re-analysis of the deposited data

Results flagged for a closer look

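The same contrast with ES cells gave different values in different iPS lines, tested as the difference between the lines themselves (limma, adjusted p under 0.05, log2 scale). Line 2 differed from line 1 in 17 of 32 genes, where 23.3% of all genes were called, 13.8% higher and 9.54% lower. It was higher for Dhcr7 1.62, Stard4 1.03, Scd1 1.01, Scd2 0.76, Tm7sf2 0.65, Srebf1 0.56, Srebf2 0.49, Insig1 0.41, Acaca 0.35, Npc1 0.34, Msmo1 0.34, Fads2 0.33, Elovl6 0.31, Pmvk 0.30 and Fdps 0.27, and lower for Idi1 -0.32 and Ebp -0.43. Line 2 differed from line 3 in 21 of 32 genes, where 31.1% of all genes were called, 19.0% higher and 12.1% lower. It was higher for Dhcr7 1.49, Stard4 1.21, Scd1 1.21, Scd2 0.76, Srebf1 0.75, Tm7sf2 0.74, Srebf2 0.69, Msmo1 0.63, Hsd17b7 0.60, Fads1 0.54, Npc1 0.53, Fads2 0.50, Acaca 0.48, Pmvk 0.45, Fdps 0.45, Insig1 0.42, Cyp51 0.38, Lss 0.34 and Elovl6 0.32, and lower for Idi1 -0.27 and Ebp -0.55. With the mean of all probe sets the difference from line 3 was -0.03 for Cyp51 (limma, adjusted p = 0.926), 0.21 for Hsd17b7 (0.307), 0.27 for Msmo1 (0.358), 0.37 for Acaca (0.145) and 0.40 for Lss (0.0618). Without _x_at and _s_at probe sets it was 0.03 for Hsd17b7 (0.917). The difference from line 1 with the mean of all probe sets was 0.09 for Acaca (limma, adjusted p = 0.767), 0.23 for Msmo1 (0.472) and 0.30 for Fads2 (0.170).

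Line 2 also had higher beta-actin 3'/5' ratios (1.74 and 1.79, against at most 1.62 elsewhere). Its Gapdh ratios (0.915 and 0.946) overlapped with those of line 3 (0.935 and 0.886). Of 12 hypoxia-induced genes 11 were higher in line 2 than in ES cells, where 16.1% of all genes were. Between lines 1 and 3, 8 of these 12 were called higher in line 1 (median 0.84), where 1.06% of all genes were. Of the 32 genes, 0 were called in that comparison. The part of these measures in the differences of line 2 was not tested. With 2 arrays for each line, no array was tested for standing apart from its group.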

How the results depend on the processing

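Of 198 values compared between the fit as reported and its alternatives, 162 stayed within the limit (a count within 1.5 times, a gap between branches within 1 SD). The counts of called genes in the mean of the lines (5 as reported) were 3 with arrays centred on their medians, 2 with the mean of all probe sets, 2 without the variance trend and 0 with line means as samples (0 at an unadjusted p under 0.05, and 0 of all 14004 genes called by limma, so this fit says nothing about these genes), and 3 to 5 on leaving out an array. For line 1 (2 as reported) they were 1 with centring, 1 with the mean of all probe sets, 0 without the trend (4 unadjusted), 1 with only the groups compared, 1 with each probe set on its own, an alternative chosen after seeing the data, and 0 to 3 on leaving out an array. For line 3 (6 as reported) they were 2 with centring, 0 with the mean of all probe sets, 0 without the trend and 0 to 6 on leaving out an array. Line 2 against line 1 (17 as reported) gave 10 with centring, 11 without the trend and 13 to 17 on leaving out an array. Line 2 against ES cells stayed at 11 to 12 and line 2 against line 3 at 18 to 21 on leaving out an array, where limma lost Pmvk, Npc1, Acaca and Fads2 against line 1 and Idi1, Lss and Hsd17b7 against line 3. Centring moved the median of all genes by more than 0.1 between line 2 and the other iPS lines, to -0.06 against line 1 (0.07 as reported) and -0.05 against line 3 (0.08).

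The gap between sterol and fatty acid medians in line 1 was 0.0791 with the mean of all probe sets and -0.0106 to 0.0897 on leaving out an array, in line 2 it was 0.127 with the mean of all probe sets, 0.0158 without _x_at and _s_at probe sets and -0.110 to -0.00037 on leaving out an array, and in line 3 it was 0.0590 under quantile normalization, 0.0533 with the mean of all probe sets and -0.0295 to 0.129 on leaving out an array. Called genes that changed sign were Scd2 in the mean without line 2 (-0.0671), Acaca in line 2 (-0.0097), Msmo1 in line 3 (0.0731) and Cyp51 in line 2 against line 3 (-0.0332) with the mean of all probe sets, and Hsd17b7 (0.0350) and Acly (-0.00456) in line 3 without _x_at and _s_at probe sets. Apart from the probe sets used, the cause was not tested. With the replicate number as a block, counts were the same, at 5, 2, 13, 6, 17, 21 and 0. The numbers do not pair the arrays (r between -0.0137 and 0.0284). Each group mean rests on 2 arrays, which limits what can be told apart.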

Other observations

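In line 2 against ES cells, 3 of 11 fatty acid oxidation genes were higher and 3 lower (limma, adjusted p under 0.05). Of 10 genes of glycerolipid synthesis and lipid droplets 2 were higher and 2 lower in line 2. Of all genes 16.1% were called higher there and 10.6% lower. Slc25a20, the mitochondrial acylcarnitine carrier, was lower in line 2 (-0.65 ± 0.07) and in line 3 (-0.42 ± 0.07), and Acadm, the medium-chain acyl-CoA dehydrogenase, likewise (-0.29 and -0.26). Acadl, the long-chain dehydrogenase, was higher in line 2 (0.55 ± 0.10) and at -0.09 in line 3.

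Cpt1a, Plin2 and Lpin1, picked after their values were seen, stood on opposite sides of ES cells in lines 2 and 3. Cpt1a, which admits fatty acids to mitochondria, had 2856 and 2749 in line 2 and 1235 and 1307 in line 3, against 1994 and 1801 in ES cells. The difference between lines 2 and 3 was 1.13 ± 0.08 (limma, adjusted p = 9.64e-07). Plin2, a coat protein of lipid droplets, differed between these lines by 1.04 ± 0.12 (limma, adjusted p = 4.12e-05), with 0.46 in line 2 and -0.58 in line 3 against ES cells. For Lpin1 the difference was 1.03 ± 0.09 (limma, adjusted p = 4.59e-06), with 0.67 in line 2 and -0.36 in line 3.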
